A study of Mus musculus with 22 samples.

Results

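The genes described here are 34 genes of homologous recombination and of the Fanconi anaemia pathway, given as a list and looked up by symbol in the deposited expression table of 22 mouse mammary cell lines. A row carrying the gene's symbol was found for 29 of the 34, each with 1 probe set, out of 14860 genes with a symbol. Xrcc2, Fancd2, Fancf, Atr and Rbbp8 were not analysed here.

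The lines were grown in culture, harvested while growing, and total RNA of each was hybridised to 1 Affymetrix mouse exon array. The submitters sorted them by origin into 12 lines from genetically engineered mice (GEM), 8 lines from spontaneous tumours or nodules and 2 immortalized lines. With 1 array per line there is no replicate of a line, so every spread below is between lines, or between the 17 lineages left after averaging lines that share a tumour, a parent or a nodule. Culture differences and array differences between lines cannot be told apart from line differences.

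Among the GEM lines, 2508 and 2855 came from a single MMTV-Wnt carcinoma and were kept in a different medium with low serum, insulin and EGF. 6DT1, cMyc and Myc83 carried MMTV-Myc, and MVT1 and MVT2 carried MMTV-Myc with VEGF. M6 carried C3(1)Tag, the SV40 T antigen under the rat C3(1) promoter, and M6C was derived from a lung metastasis of M6. DB7 came from a transplanted tumour of the MMTV-PyVT Db mutant, whose middle T antigen is uncoupled from PI3K. The description of line 780 reads BRCA-/-;p53+/+;Wap-cre, while its growth protocol gives p53 as +/-, and neither says which BRCA gene was deleted. The description of p1522 reads p53-/-;MMTV-cre, while its growth protocol gives p53 as +/-. The MMTV and Wap promoters drive expression in mammary epithelium. Among the spontaneous lines, 67NR, 4T07 and 4T1 shared a BALB/cfC3H tumour, were described as rising in metastatic ability in that order, and carried drug resistance, induced by transfection in 67NR and 4T07 and selected as spontaneous in 4T1. D2A1 and D20R came from the D2 hyperplastic alveolar nodule line, EMT6 and TSA from BALB/c tumours, and F311 was a sarcomatoid clone of the M3 adenocarcinoma. The immortalized lines were EPH4, a subclone with an empty retroviral vector, and NMUMG, from a Namru mouse gland.

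Homologous recombination repairs a broken chromosome by copying the sister strand, and it works mainly in cells that are replicating their DNA. MRE11, RAD50 and NBN bind and trim the break, BRCA1 with BARD1 and PALB2 bring in BRCA2, BRCA2 prepares the single strand for pairing, and RAD54 proteins help it invade the copy. The Fanconi pathway deals with crosslinks between strands: FANCM recognises the stalled fork, a nuclear core complex tags FANCI and its partner with ubiquitin, and nucleases held by SLX4 cut the crosslink out. In breast tissue the pathway is best known because carriers of a damaged BRCA1, BRCA2 or PALB2 copy are prone to mammary carcinoma, and tumours that lose it become sensitive to crosslinking drugs and PARP inhibitors.

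Values are log2 intensities as deposited, so that a difference of 1 is 2-fold. Over the table the values ran from 2.74 to 13.91, the array medians from 6.78 to 7.17 and the SD of the values within an array from 1.76 in 2855 to 2.12 in p1522. The mean over lines was above the highest array median for 22 of the 29 genes, between the lowest and the highest for 3 and below the lowest for 4. Epcam and Cdh1, which define epithelial cells, were both above the highest array median in 9 lines and both below it in 11. The 780 and p1522 lines were among the 11 and M6 and M6C among the 9. Among keratins, Krt18 was above that median in 20 lines, but Krt19 in 9, Krt14 in 8 and Krt5 in 1. Among mesenchymal markers, Vim and Col1a1 were above it in all 22, S100a4 in 20 and Col1a2 in 14. Zeb1 was above it in 13, Pdgfrb in 12, Pdgfra in 8 and Thy1 in 0. The lines without Epcam and Cdh1 are called mammary here from their labels alone. All 4 endothelial markers, and Ptprc and Csf1r of immune cells, were below every array median in all 22 lines, as were Adipoq and Fabp4 of adipocytes, while Plin1 was above the highest in all 22. The mean of the 4 immune markers ran from 5.74 to 6.99 over the lines, and Cd68 was above the highest array median in 13 lines.

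Many genes of DNA synthesis carry E2F sites, which tie their transcription to the start of replication, and the windows around the start sites of these repair genes were read for them. RefSeq windows on GRCm38.p6, from 250 bases before to 50 bases after the start, were matched for 25 of the 29 genes. An E2F core, searched on both strands as TTCCCGC or as TTCGCGC or as TTGCCGC or as TTGGCGC, was in 16 of the 25 (64%), against 15.7% of the windows of 11894 genes measured on the array and 9.57% of all 32851 windows. GC content was close, with a median of 59.7% in the repair genes and 58.3% in the measured genes, and 17.4% of the 2476 measured genes with a GC content between the repair genes' quartiles had the core. A CCAAT box was in 17 of the 25 (68%), against 42.4% of measured genes. The reverse complement of TTGGCGC ends in CCAA, so a T after it makes both matches. The cell cycle homology element TTTGAA was in 1 window, that of Bard1 (4%), against 16.9% of measured genes. The 4 windows below belong to the genes with the largest differences in line 780 and to Chek1, the gene that followed the rest of the list most closely; capitals mark the E2F core.
Brca1 promoter window (chr11:101551906-101552205, - strand): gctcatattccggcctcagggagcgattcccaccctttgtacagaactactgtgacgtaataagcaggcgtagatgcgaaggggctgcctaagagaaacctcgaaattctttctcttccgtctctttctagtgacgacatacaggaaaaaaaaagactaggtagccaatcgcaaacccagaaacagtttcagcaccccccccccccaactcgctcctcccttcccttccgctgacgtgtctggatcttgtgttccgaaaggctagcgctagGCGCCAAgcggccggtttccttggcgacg
Bard1 promoter window (chr1:71102923-71103222, - strand): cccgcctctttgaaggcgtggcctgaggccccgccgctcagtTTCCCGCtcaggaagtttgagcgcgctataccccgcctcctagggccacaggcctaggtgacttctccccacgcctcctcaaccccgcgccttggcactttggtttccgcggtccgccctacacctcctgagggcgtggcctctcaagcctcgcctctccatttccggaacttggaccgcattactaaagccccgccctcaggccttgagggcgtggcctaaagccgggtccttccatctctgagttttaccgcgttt
Fancm promoter window (chr12:65075353-65075652, + strand): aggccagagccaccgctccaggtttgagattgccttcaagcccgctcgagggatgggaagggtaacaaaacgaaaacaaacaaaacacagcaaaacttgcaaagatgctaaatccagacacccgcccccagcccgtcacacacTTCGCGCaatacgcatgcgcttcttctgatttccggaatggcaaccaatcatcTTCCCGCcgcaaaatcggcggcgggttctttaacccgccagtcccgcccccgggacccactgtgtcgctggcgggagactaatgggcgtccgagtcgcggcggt
Chek1 promoter window (chr9:36726609-36726908, - strand): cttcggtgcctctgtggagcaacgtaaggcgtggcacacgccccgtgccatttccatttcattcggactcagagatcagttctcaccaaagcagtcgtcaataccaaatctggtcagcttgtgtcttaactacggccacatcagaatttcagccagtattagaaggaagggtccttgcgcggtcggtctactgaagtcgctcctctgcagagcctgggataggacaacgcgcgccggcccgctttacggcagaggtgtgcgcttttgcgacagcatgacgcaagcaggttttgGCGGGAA
The core lay after the start in the Brca1 and Chek1 windows and before it in the Bard1 and Fancm windows, and Fancm had 2. These matches are letters in a window and say nothing of E2F binding in these lines.

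The level of the list as a whole differed by line. The mean of the gene-centred values was highest in 780 at 0.39, followed by D2A1 at 0.28, M6C at 0.24, TSA at 0.24 and p1522 at 0.22. It was lowest in the MMTV-Wnt lines 2855 at -0.45 and 2508 at -0.38, then in F311 at -0.34 and EMT6 at -0.26. Line 780 was among the 3 highest lines for 14 of the 29 genes and the lowest for none, while 2855 was among the 3 lowest for 18. In the heat map of all 29 genes these lines stand at its left and right edges.

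**Figure D1:**
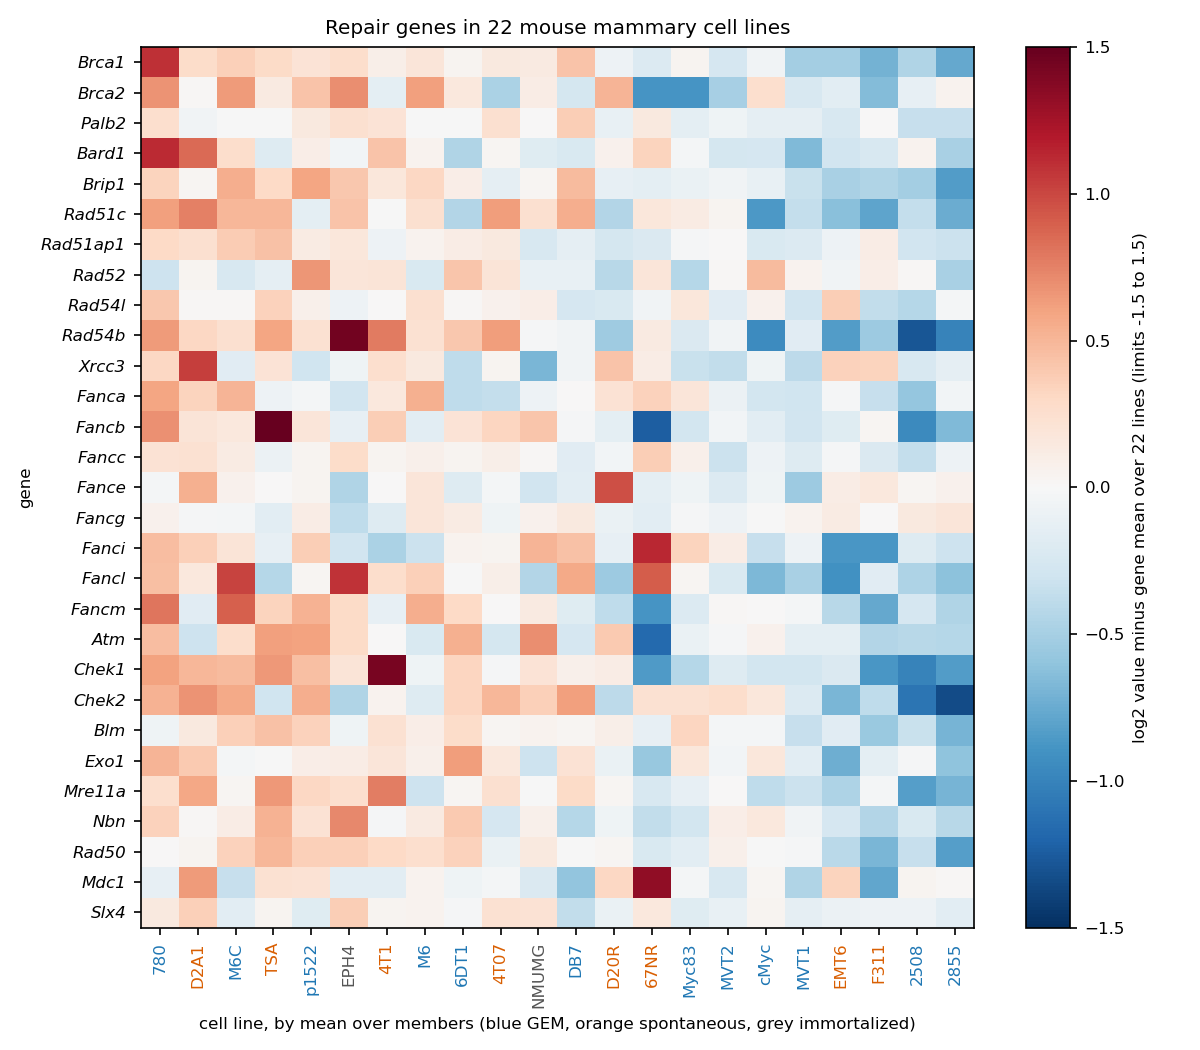
Gene-centred log2 value of each of 29 repair genes (rows) in each of 22 lines (columns), with the lines ordered by their mean over the genes and their names coloured by origin. Line 780 is at the left with a mean of 0.39 and 2855 at the right with -0.45, and single dark cells mark Fancb in TSA, Chek1 in 4T1, Rad54b in EPH4 and Atm in 67NR.

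Over the 17 lineages, 23 of the 29 genes had a Pearson correlation above 0.5 with the mean of the other 28. The share of all genes with such a correlation was not computed. Chek1, the kinase that holds cells with stalled forks, had 0.93, Brca1 0.91 and Brip1, the helicase bound to BRCA1, 0.88. Fancg and Fance of the core complex and Rad52, which anneals single strands, did not follow, at -0.32, 0.01 and 0.00. With the SD of the array's values, 13 of the 29 genes had a correlation above 0.5. The median correlation with the mean of the others was 0.63 for the 16 genes with an E2F core in their window and 0.54 for the 9 without. These sets overlapped, since Fancg and Rad52 had the core while Mre11a, at 0.76, had none. The difference between the medians was not tested.

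The mean of the list also followed other lists measured on the same arrays. Its Pearson correlation over the 17 lineages was 0.83 (Spearman 0.78) with 35 genes of E2F and DNA replication and 0.84 (0.85) with 21 genes of mitosis. It was 0.83 with 13 genes of non-homologous end joining and 0.81 with 25 genes of excision and mismatch repair. With 19 genes of the Rb pathway and p53 targets, pooled as a list of mixed roles, it was 0.01. The share of cells in S phase and the RNA per cell cannot be told apart in such bulk samples. The list mean correlated as closely with the array itself, at 0.76 with the SD of the array's values and -0.85 with its median. The endothelial markers, below every array median, gave -0.77. Leaving out the 2 lineages farthest from the median SD, the correlation with array SD was 0.58, and without those farthest from the median of the E2F list the correlation with that list was 0.70. The points share array, scale and normalization, and the part of array spread in the differences between lines was not tested.

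**Figure D2:**
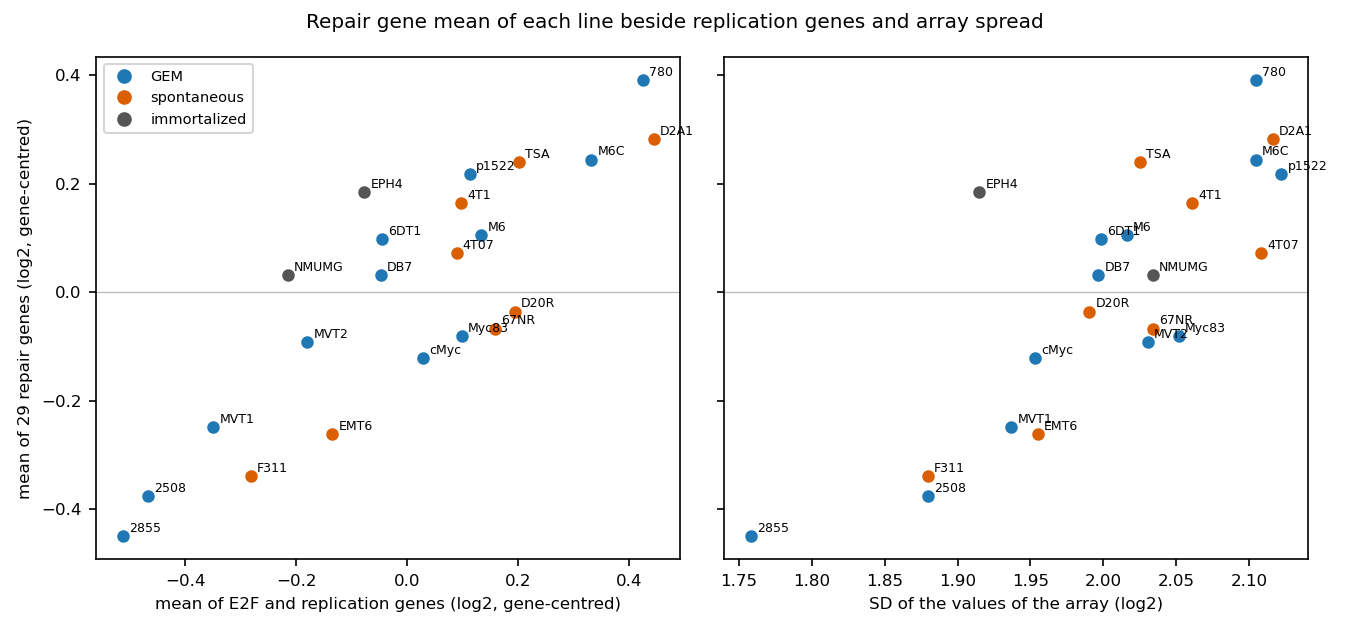
Mean of the 29 gene-centred repair genes in each line (vertical axis, log2) against the mean of 35 E2F and replication genes (left, log2) and against the SD of all values on the array (right, log2), 1 point per line coloured by origin. Line 780 is at the upper right and 2855 at the lower left of both panels, and 2855 has the smallest array SD, 1.76.

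The 780 line, the T antigen lineage (M6 with M6C) and p1522 were each compared with the 14 other lineages, to ask whether lines from mice with a BRCA or p53 deletion or with T antigen, which binds both RB and p53, differed in these genes. Each model is 1 lineage, assumed in the fit to vary as the others do, and the 3 contrasts share the 14. With limma and Benjamini-Hochberg adjustment over 16755 probe sets, 0 of the 29 genes passed an adjusted p of 0.05 in any of the 3. In all probe sets, 0.585% passed for 780, 0.161% for T antigen and 0.113% for p1522. At an unadjusted p under 0.05 there were 4 genes for 780 (Bard1, Brca1, Fanca and Fancm) against 7.16% of probe sets. There were 2 for T antigen (Fanca and Fancm) against 3.56% and 1 for p1522 (Rad52) against 6.24%, all of them higher in the model.

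Most of the genes nevertheless lay above the other lineages' mean in each model. In 780 26 of 29 were higher, with a median difference of 0.44 where all 14860 genes had -0.14 and 37.2% higher. In p1522 26 of 29 were higher, with a median of 0.26 against -0.10 and 40.3%. In the T antigen lineage 24 of 29 were higher, with a median of 0.19 against -0.11 and 34.7%. The arrays of 780, p1522 and M6C were among those with the widest spread. With array SD as a covariate, a fit chosen after the data were seen, the median of the 29 genes was 0.22 in 780, 0.05 in T antigen and -0.03 in p1522. The genes above every one of the 14 other lineages numbered 6 in 780 (Bard1, Brca1, Fanca, Fancm, Rad51c and Rad54l) where 7.24% of probe sets were. There were 2 in T antigen (Fanca and Fancm) where 4.27% were, and 3 in p1522 (Brip1, Fancm and Rad52) where 4.3% were.

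**Figure D3:**
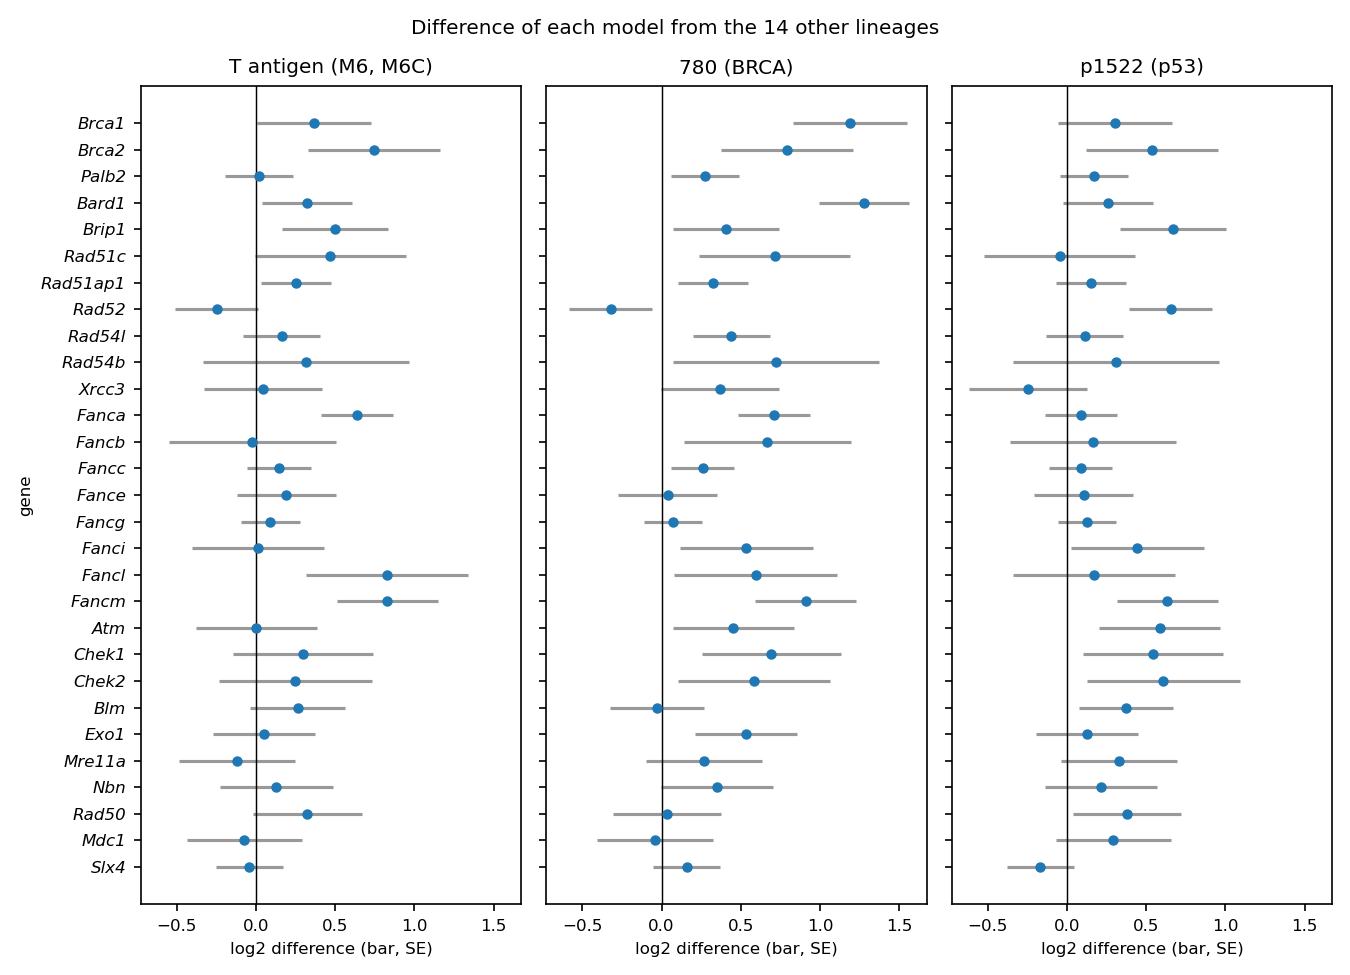
Difference of each of the 29 genes in the T antigen lineage, 780 and p1522 from the mean of 14 other lineages (horizontal axis, log2; bars, SE of the limma fit). The points of Bard1 at 1.28 and Brca1 at 1.19 in 780 lie farthest to the right.

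Brca1 and Bard1, whose proteins pair as a ubiquitin ligase at the break, had the largest differences in line 780. Brca1 was 9.36 in 780, 8.47 in p1522, 8.45 in M6 and 8.62 in M6C. In the other GEM lines it was 7.82 in 2508, 7.50 in 2855, 8.30 in 6DT1, 8.21 in cMyc, 8.31 in Myc83, 7.75 in MVT1, 8.02 in MVT2 and 8.69 in DB7. Outside the GEM lines it was 8.06 in 67NR, 8.41 in 4T07, 8.36 in 4T1, 8.55 in D2A1, 8.19 in D20R, 7.75 in EMT6, 7.55 in F311, 8.56 in TSA, 8.53 in EPH4 and 8.40 in NMUMG. The 780 value stood 0.67 above the next line, DB7, and the remaining 21 lines overlapped across origins. The difference from the 14 lineages (8.17 ± 0.36, SD, n = 14) was 1.19 with SE 0.36, and limma's adjusted p was 0.263. With array SD as a covariate it was 0.81.

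Bard1 was 9.76 in 780, 8.74 in p1522, 8.69 in M6 and 8.91 in M6C. The other GEM lines gave 8.70 in 2508, 8.16 in 2855, 8.20 in 6DT1, 8.39 in cMyc, 8.61 in Myc83, 7.98 in MVT1, 8.38 in MVT2 and 8.41 in DB7. The rest gave 8.98 in 67NR, 8.67 in 4T07, 9.07 in 4T1, 9.50 in D2A1, 8.71 in D20R, 8.36 in EMT6, 8.40 in F311, 8.44 in TSA, 8.60 in EPH4 and 8.46 in NMUMG. Line 780 was again the highest, but D2A1 lay only 0.26 below it while its relative D20R did not. Against the 14 lineages (8.48 ± 0.27, SD, n = 14; highest 9.10) the difference was 1.28 with SE 0.28 and limma's adjusted p was 0.0588. Against the other GEM lineages alone it was 1.41 with limma's adjusted p of 0.0393. Of 18 fits that each left out 1 lineage or line, 2 gave an adjusted p under 0.05, those without the 4T lineage (0.0427) and without the D2 lineage (0.0164), and the largest was 0.0916. With single lines and a lineage block the difference was 1.25 with limma's adjusted p of 0.227, and with array SD as a covariate it was 1.08 with limma's adjusted p of 0.193.

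Brca2, whose protein acts on the single strand at a trimmed break, was 7.60 in 780, second of the 22 lines. It was 7.35 in p1522, 7.54 in M6 and 7.57 in M6C, all in the upper part of a range from 6.04 in 67NR to 7.62 in EPH4 with a median of 6.96. The difference from the 14 lineages (6.81 ± 0.42, SD, n = 14) was 0.79 with SE 0.41 for 780 and 0.74 with SE 0.41 for T antigen, and EPH4 was above both. The limma adjusted p was 0.673 for 780 and 0.952 for T antigen. Since the labels name no BRCA gene or deleted exons, and no label or file places the probes on the gene, the Brca1 and Brca2 levels do not check the genotype of 780.

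Fancm, the translocase that opens the Fanconi response at stalled forks, had its 4 highest values in the 4 lines of these models. It was 7.37 in M6C, 7.28 in 780, 7.02 in M6 and 7.002 in p1522. The next lines were TSA at 6.81, 6DT1 at 6.77 and EPH4 at 6.77, the median of the 22 was 6.46 and the lowest was 5.59 in 67NR. The difference from the 14 lineages (6.37 ± 0.32, SD, n = 14) was 0.91 for 780, 0.83 for T antigen and 0.63 for p1522, each with SE 0.32. The adjusted p from limma was 0.447, 0.952 and 0.685. Its mean over lines, 6.48, was below the lowest array median. With array SD as a covariate the differences were 0.75, 0.73 and 0.45.

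The other differences were smaller or fell within the spread of the lineages. Fanca, a core complex subunit, was 8.94 in 780, 8.88 in M6 and 8.85 in M6C, the 3 highest lines, but 8.31 in p1522. In T antigen it was 0.64 above the 14 lineages (8.22 ± 0.21, SD, n = 14; SE 0.23, limma adjusted p 0.952). Fancl, the ligase of the core complex, was 0.83 above them in T antigen with SE 0.51, from 7.11 in M6 and 7.76 in M6C, and 0.50 above them with M6 alone. EPH4 at 7.84 was higher than both and the range began at 5.85 in EMT6.

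Rad52 was high in p1522 and low in the other models. It was 8.67 in p1522, the highest of the lines, and 7.70 in 780, 7.77 in M6 and 7.77 in M6C, all below the median of 8.02, in a range that began at 7.52 in 2855. The difference from the 14 lineages (8.02 ± 0.25, SD, n = 14) was 0.65 for p1522, -0.32 for 780 and -0.25 for T antigen, each with SE 0.26. The difference between the models themselves was not tested, and none passed the adjusted threshold. Brip1 was also highest in p1522, at 8.65, but M6C at 8.60 and DB7 at 8.53 were close. It was 0.67 above the 14 lineages (7.99 ± 0.33, SD, n = 14; SE 0.34, limma adjusted p 0.685) and 0.33 with array SD as a covariate.

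The genes on the lower side of the contrasts were close to the other lineages. In 780 Mdc1, the scaffold on marked chromatin at breaks, differed by -0.04 (8.40 in a range of 7.73 to 9.84), and Blm, the helicase that dissolves crossed strands, by -0.03 (7.61 in a range of 6.97 to 8.11). In T antigen Mre11a, the nuclease, differed by -0.12 (8.63 in M6 and 8.97 in M6C, in a range of 8.11 to 9.71) and Mdc1 by -0.07. In p1522 Xrcc3 and Rad51c, whose proteins form a complex in recombination, differed by -0.24 (7.43, median 7.68) and -0.05 (7.56, median 7.78), and Slx4 by -0.17 (7.60, median 7.73). Of these, Blm, Mdc1, Mre11a and Rad51c took the opposite sign under at least 1 other setting.

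**Figure D4:**
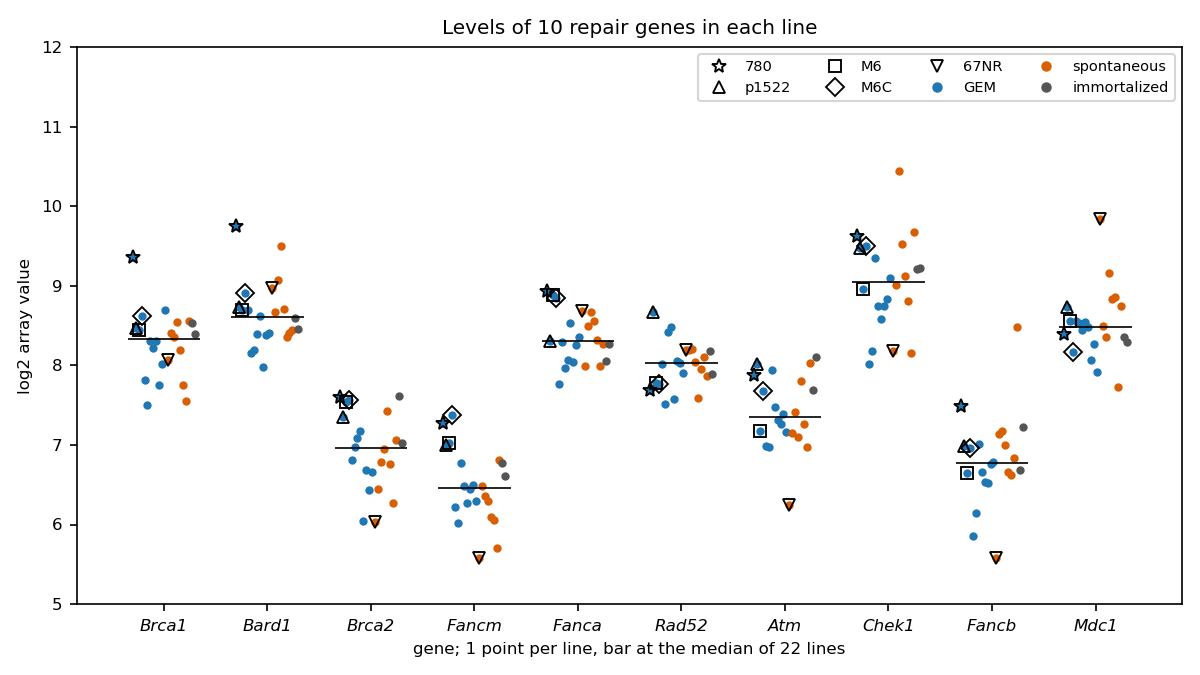
Log2 array value of 10 repair genes in each of 22 lines (vertical axis), coloured by origin, with open symbols for 780, p1522, M6, M6C and 67NR and a bar at the median of the lines. The 780 star is the highest point for Brca1 (9.36), Bard1 (9.76) and Fanca (8.94), the 4 model lines are the highest for Fancm, and 67NR is the lowest for Atm (6.24).

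Beyond the 29, a list of 47 measured partners of the same pathways held 1 gene that passed in 780, beside 0.585% of probe sets. Rad51b, a recombination gene whose protein works with that of Rad51c, was 8.36 in 780 and between 6.27 in MVT2 and 7.16 in 2855 in the other 21 lines. The difference from the 14 lineages (6.73 ± 0.21, SD, n = 14) was 1.62 with SE 0.23, and limma's adjusted p was 0.00204. The mean of the 14 was below the lowest array median. The call rests on the single 780 array, which has no replicate, and with array SD as a covariate the difference was 1.78. Leaving out other lineages or lines, which varies only the comparison group, gave a largest adjusted p of 0.0043 in limma. Of the 47 partners 30 were higher in 780, with a median of 0.13, where all genes had -0.14 and 37.2% higher. Rad51c itself, at 8.32 in 780, was also above the 14 lineages, but D2A1 at 8.45 and 4T07 at 8.33 were higher as single lines.

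Most replication genes also lay above the other lineages in these models. Over all genes, 37.2% were higher in 780, 34.7% in T antigen and 40.3% in p1522. In 780 30 of 35 E2F and replication genes were higher (median 0.53). Of these 35, 0 passed, beside 0.585% of probe sets, and 12 had an unadjusted p under 0.05 in limma, beside 7.16%. In T antigen 30 of 35 were higher (median 0.32), and in p1522 26 of 35 (median 0.14). Of 21 mitosis genes 18 were higher in 780 (median 0.25), 11 in T antigen (0.06) and 19 in p1522 (0.34). Of 19 Rb pathway and p53 target genes 5 were higher in 780 (median -0.21), 7 in T antigen (-0.02) and 14 in p1522 (0.31). The list pools genes of mixed roles, so these counts have no single direction. In p1522 its largest differences were Trp53inp1 at 1.59 (SE 1.07) and Eda2r at 1.16 (SE 0.97), while 5 of the 19 genes were lower. The share in T antigen, 36.8%, was near that of all genes. In each of the 3 models 0 of the 19 passed, beside 0.585%, 0.161% and 0.113% of probe sets. Epithelial markers differed in opposite directions: the median of 9 was 2.83 in T antigen, -1.19 in 780 and -1.26 in p1522. An unadjusted p under 0.05 in limma was reached by 3 of the 9 in T antigen and by 0 in 780 and p1522. The gene-centred mean of the 9 was -1.34 in 780 and -1.39 in p1522. These were among the values of other lines, such as -1.53 in 67NR, -1.46 in D2A1 and -1.31 in TSA. The 8 mesenchymal markers were all lower in T antigen (median -0.72), while 4 of 8 were lower in 780 (median -0.01) and 5 of 8 in p1522 (median -0.10). The part of these lists in the repair gene differences was not tested.

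A second question was whether any line had lost 1 of the genes. A loss was counted where the lowest line lay at least 1 log2 unit below the next and the median of the other lines was above 7.17, and a gain as the mirror. None of the 29 genes met the rule for loss, where 1.38% of all 14860 genes did, and none met it for gain, where 2.86% did. The rule does not see a loss that leaves the RNA in place, nor a low value shared by related lines. Chek2 was lowest in 2855 at 6.69 and 2508 at 6.93, a gap of 0.24. Over the 17 lineage means, 0 of the 29 genes met the rule for loss, beside 1.04% of all genes, and 0 for gain, beside 2.56%. By its level requirement the rule also could not count a loss in Brca2, Palb2, Rad51ap1, Fancb, Fancc, Fancl or Fancm, whose medians were below 7.17. Without that requirement, 0 of the 29 genes met the gap for loss, beside 1.40% of all genes, and 0 for gain, beside 3.43%. Fancc ran only from 5.53 to 6.26 and Palb2 from 6.04 to 6.76, while the endothelial marker Pecam1 ran from 5.13 to 6.06. For genes this low a drop of 1 unit may not be measurable, so this count cannot show that no line lost them.

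The widest low gap was that of Atm, the kinase that signals breaks. It was 6.24 in 67NR, 0.73 below F311 at 6.97, with a median of 7.35 and a highest value of 8.11 in NMUMG. The related lines 4T07 and 4T1 had 7.14 and 7.41, within the range of the other lines. The next widest low gap, Brip1 in 2855, was 0.32. With a gap of 0.5 Atm in 67NR would count as the 1 loss, beside 5.5% of all genes.

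High gaps were wider. Fancb, an X-linked subunit of the core complex, was 8.48 in TSA and 7.49 in the next line, 780, a gap of 0.98, while the lowest was 5.57 in 67NR and the median 6.78. Chek1 was 10.45 in 4T1, 0.77 above TSA at 9.67, with the lowest value 8.02 in 2508. Rad54b was 9.05 in EPH4, 0.67 above 4T1, and had the largest SD of the 29 genes, 0.66, from a lowest value of 6.31 in 2508. Mdc1 and Fanci, the ubiquitinated partner in the Fanconi pathway, were both highest in 67NR, at 9.84 and 8.74, by 0.69 and 0.62. Xrcc3 was 8.77 in D2A1, 0.60 above D20R. With a gap of 0.75 Fancb and Chek1 would count as gains. After quantile normalization, Fancb in TSA met the full rule.

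Chek1, Fancb and Fancl followed Rad54b in spread, with SDs of 0.59, 0.58 and 0.56 over the 22 lines. Fancg and Fancc varied least. Fancg ran from 6.90 in EPH4 to 7.47 in M6 (SD 0.14), and Fancc from 5.53 in 2508 to 6.26 in 67NR (SD 0.18), a level below every array median.

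Related lines were set against each other as single arrays. Between 67NR and the fully metastatic 4T1, 4 of the 29 genes were at least 1 log2 unit higher in 4T1 and 2 lower, where 13.1% of all genes were that far apart in either direction. Chek1 was 8.17 and 10.45, Fancb 5.57 and 7.18, Atm 6.24 and 7.41 and Mre11a 8.70 and 9.71 in 67NR and 4T1. Fanci went the other way, from 8.74 to 7.14, and Mdc1 from 9.84 to 8.36. In 4T07 against 67NR 3 genes were that far apart (Fancb higher, Mdc1 and Fanci lower), beside 10.5% of all genes. In 4T1 against 4T07 only Chek1 was, by 1.44, beside 3.3%. These are single arrays, 67NR lacked Epcam and Cdh1 where 4T07 and 4T1 had both, and these differences have no test.

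The other related lines were closer. M6C and M6 had 0 of the 29 genes at least 1 unit apart, beside 1.55% of all genes, and the widest was Chek2, a checkpoint kinase, 0.76 higher in the metastasis line M6C. In 2855 against 2508 0 were that far apart, beside 5.26%. D20R had 26 of the 29 genes below D2A1, while 58.8% of all genes were higher in D20R. The median difference was -0.34 where all genes had 0.09. Rad51c and Chek2 were lower by at least 1 unit, at -1.19 and -1.07, beside 4.35% of all genes. The array SD was 2.12 in D2A1 and 1.99 in D20R, and its part in this was not tested.

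The origins themselves were compared over 10 GEM, 5 spontaneous and 2 immortalized lineages. Between GEM and spontaneous lineages 0 of the 29 genes passed, beside 0.113% of probe sets, and 3 (Fance, Fancm and Xrcc3) had an unadjusted p under 0.05, beside 7.72%. Xrcc3 had the largest difference. The GEM lineages averaged 7.56 ± 0.23 (SD, n = 10) and the spontaneous ones 8.09 ± 0.23 (SD, n = 5), a difference of -0.53 with SE 0.14 and limma's adjusted p of 0.185. In single lines Xrcc3 ran from 7.34 to 8.05 in the GEM group, with 780 the highest, and from 7.78 to 8.77 in the spontaneous group, so that the groups overlapped. Fancb followed at -0.32, which became 0.03 without TSA, and Fance at -0.30, which became -0.16 without D2. On the higher side were Fancm at 0.45, Fanci at 0.41 and Chek2 at 0.34. Fanci became 0.26 without F311, and Chek2 0.21 without EMT6. The median of the 29 genes was 0.03, beside -0.04 for all genes.

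Between tumour lineages and the 2 immortalized ones 0 of the 29 genes passed, beside 0.298% of probe sets, and 3 (Fance, Slx4 and Xrcc3) had an unadjusted p under 0.05, beside 11.9%. Rad54b was lower in tumour lineages by 0.81 (SE 0.44), with EPH4 at 9.05 and NMUMG at 7.58, and the difference was -0.076 without EPH4 and -1.54 without NMUMG. Atm differed by -0.50 and Brca2 by -0.48, and on the higher side Xrcc3 by 0.46, Fance by 0.41 and Mdc1 by 0.19. Without EPH4 Brca2 differed by -0.18 and Xrcc3 by 0.77, and without NMUMG Atm differed by -0.29, Brca2 by -0.78 and Xrcc3 by 0.15. Mdc1 differed by 0.30 without F311. The median of the 29 was -0.14, beside 0.04 for all genes. Of the partner list, Fbh1, a helicase that limits recombination, passed, at 0.90 higher in tumour lineages (SE 0.18, limma adjusted p 0.0392), with 7.69 in EPH4 and 8.57 in NMUMG below every other line. It passed in 9 of 19 fits that left out 1 lineage or line, and without EPH4 the difference was 0.45 with limma's adjusted p of 0.603. With arrays centred on their median limma's adjusted p was 0.0569, and with the probe sets of lowest mean level left out it was 0.0814.

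Within the GEM lineages, the 5 with a Myc transgene were compared with the 5 without, which include 780, p1522 and the T antigen lineage. None of the 29 genes passed, beside 0.0119% of probe sets, and 0 had an unadjusted p under 0.05, beside 5.41%. The median difference of the 29 genes was -0.14, beside 0.03 for all genes. In the Myc lineages 22 of the 29 genes were lower, while 57.9% of all genes were higher in them. Brca2 was 6.68 ± 0.47 (SD, n = 5) in them and 7.21 ± 0.42 (SD, n = 5) in the others, Bard1 differed by -0.51 and Fancl by -0.51, and the groups overlapped for each. Without 780, the highest line for Bard1, that gene differed by -0.28. Rad52 at 0.15, Nbn at 0.08 and Exo1, an exonuclease, at 0.05 were on the higher side. Rad52 ranged from 0.059 without cMyc to 0.33 without p1522.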

How the data were processed

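Per the labels, total RNA of 22 mouse mammary lines was labelled by the Affymetrix one-cycle protocol and hybridised to 1 exon array per line; the submitters' processing notes name GCOS and mm9. The authors deposited 1 table of processed values, whose log2 scale was taken from its range. Neither label nor header states how it was summarized or normalized. Values were used as deposited. Of 23332 entries, 16755 transcript clusters were tested; the 14996 with 1 symbol in the platform annotation gave 14860 genes (highest mean where several), 14941 Entrez IDs matched RefSeq, and 1019 probe sets with several symbols and 740 with none were not named. No 2 arrays were identical.

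Lines sharing a tumour, a parent or a nodule were averaged, which left 17 lineages. The limma package (3.58.1, R 4.3.3; lmFit, eBayes, Benjamini-Hochberg over all 16755) was tested on simulated data. P-values measure only the spread between lineages, and the number of arrays limits the precision; no depth applies. Alternatives were array centring, quantile normalization, a filter on low values, robust eBayes, a lineage block, fewer lineages and other gaps. The genes and lists were chosen with earlier results of these data known. Named were Brca1 and Brca2, genes past a threshold, the 3 largest differences each way in a comparison, and the 4 largest and 2 smallest SDs. Fanca, Atm, Mdc1, Fanci and the genes of related line pairs were added after their values were seen.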

Additional observations from a re-analysis of the deposited data

Results flagged for a closer look

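For each gene, the lowest and the highest of the 10 GEM lineages and of the 5 spontaneous lineages were set against Dixon's critical value, and 6 gene and lineage pairs exceeded it. Chance alone flags about 1 in 20 groups, and 60 groups were looked at, the 29 genes and their mean in both origins. Among GEM lineages, Bard1 was 9.76 in 780 while the other 9 lay between 7.98 and 8.80. Chek2 was 6.81 in the MMTV-Wnt lineage ZD2508 while the others lay between 7.82 and 8.64. Fance, a core complex subunit, was 7.31 in MVT1 while the others lay between 7.65 and 7.97. Among spontaneous lineages, Fancb was 8.48 in TSA while the other 4 lay between 6.63 and 6.83. Fance was 8.60 in the D2 lineage, from 8.39 in D2A1 and 8.82 in D20R, while the others lay between 7.80 and 8.01. Mdc1 was 7.73 in F311 while the others lay between 8.74 and 8.99. The low Chek2 of ZD2508 was measured in both of its lines, 2508 at 6.93 and 2855 at 6.69, which also had 2 of the 3 smallest array SDs.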

How the results depend on the processing

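Under array centring, quantile normalization, a filter on low values, robust eBayes, a lineage block, other sets of lineages, 1 lineage or line left out and other gaps, 302 of 308 recomputed counts and medians stayed within 1.5 times or 1 SD of the reported value. The reported counts of the 29 genes passing, lost or gained were 0, and counts of 0 have little room to move. The number of the 29 genes passing in 780 became 1 (Bard1) with the other GEM lineages alone, and ranged from 0 to 1 when 1 lineage or line was left out. Single-line losses became 1 with a gap of 0.5, and gains 7, against 2 at 0.75 and 1 after quantile normalization. Chosen after seeing the data, array SD as a covariate made the median of the 29 genes 0.22 in 780 and -0.027 in p1522; the cause was not tested.

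Of differences of single genes, 17 reversed, and the cause was not tested. Centring gave Blm 0.073 and Mdc1 0.059 in 780, and Rad51c 0.034 in p1522. The other GEM lineages alone gave Mdc1 0.071 in 780 and 0.039 in T antigen, Mre11a 0.036 in T antigen and Rad51c 0.073 in p1522. Leaving out 1 lineage or line gave, in 780, Blm -0.068 to 0.00797 and Mdc1 -0.097 to 0.000389. In T antigen it gave Mdc1 -0.27 to 0.13 and Mre11a -0.29 to 0.047, and in p1522 Rad51c -0.10 to 0.00366. It gave Fancb -0.44 to 0.025 in GEM against spontaneous lineages, and Exo1 -0.073 to 0.15 and Nbn -0.026 to 0.17 in the Myc comparison. Without the 3 arrays of smallest SD, chosen after seeing the data, Exo1 was -0.059 and Nbn -0.000455 there.

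Counts over all probe sets moved more. With the probe sets of lowest mean level left out, 54 passed in 780 instead of 98, 1 in p1522 instead of 19 and 2 between tumour and immortalized lineages instead of 50. That last count was 120 after quantile normalization and 473 with array SD as a covariate, which also gave 42 for GEM against spontaneous lineages instead of 19 and 50 for T antigen instead of 27. Leaving out 1 lineage or line gave 79 to 111 for 780, 27 to 39 for T antigen, 18 to 26 for p1522, 9 (without D2) to 32 (without 780) for GEM against spontaneous lineages, 28 (without 6DT1) to 413 (without NMUMG) for tumour against immortalized lineages and 2 to 15 (without p1522) for Myc. Precision is limited by 1 array per line, and 3 of the 6 comparisons rest on 1 lineage in an arm. Signal over background was not measured. The replicate numbers only count the lines within a group, so no paired analysis between groups was possible.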
